A study of Mus musculus with 4 samples.

Results

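The transcription factors of medial ganglionic eminence (MGE) neurons were followed by their symbols in the bulk RNA-seq of tdTomato+ neurons derived from mouse ES cells. The set is Nkx2-1, Lhx6, Sox6, Satb1, Maf and Zeb2, which are 6 of the 34968 gene symbols shared by all libraries. All 6 were listed in every library, and all 6 were among the 12975 genes kept for testing, which reached 1 TPM in 2 or more libraries. Lhx6 was the most abundant of them in each library, and none passed the test between the lines. Maf alone was lower in both N/D/S libraries than in both N/D libraries, an order shared by 8.23% of all genes tested. Sox6 and Satb1 were close to 0 in a single N/D library. In that library, 29.2% of the genes that reached 3 TPM in all the others were under 1 TPM. TPM values are scaled to transcript length and to the library total, so levels can be compared between genes. The neurons were sorted from embryoid bodies on day 12, with 2 libraries from each of 2 lines. In the N/D line, a C57/BL6 parental line carrying Dlx6-Cre and the Ai9 reporter received Nkx2-1 and Dlx2. The N/D/S line received V5-tagged St18 in addition. According to the methods, Nkx2-1 was driven by Nestin sequences together with a tetracycline transactivator, and Dlx2, with or without St18, by a promoter that responds to it. Both lines are selected clones of the same parental cells. All cultures received the Wnt inhibitor XAV-939 and the Sonic hedgehog agonist SAG. The comparison asks whether adding St18, a zinc finger factor of the Myt1 family, was accompanied by a change in the factors of MGE neuron fate.

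As background, these factors act in sequence in the MGE. NKX2-1, a homeodomain protein, gives ventral forebrain progenitors their MGE identity and activates Lhx6, whose LIM-homeodomain product is kept in migrating interneurons. SOX6, an HMG-box protein, and SATB1, a chromatin organizer, act after Lhx6 in the positioning and maturation of cortical interneurons. MAF, a basic leucine zipper protein, promotes somatostatin interneurons. ZEB2, a zinc finger homeobox repressor, acts in precursors of cortical interneurons, where Nkx2-1 is switched off. Nkx2-1 is kept in projection neurons of the globus pallidus and in striatal interneurons.

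In GENCODE M21 on GRCm38, all 6 genes are protein-coding and lie on the minus strand. Nkx2-1 lies at chr12:56531958-56536908, Lhx6 at chr2:36081953-36105408 and Zeb2 at chr2:44983632-45117395. Sox6 lies at chr7:115470872-116038796, Satb1 at chr17:51736187-51833290 and Maf at chr8:115682942-115707794. The longest annotated transcript measures 2809 bases for Nkx2-1 and 3481 bases for Lhx6. It measures 6243 bases for Satb1, 6360 bases for Maf, 8668 bases for Sox6 and 9124 bases for Zeb2. Each overlaps other annotated genes, at least 1 of them on the opposite strand except for Lhx6, and whether reads were assigned by strand is not given in the sources used here.

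RefSeq promoter sequences on GRCm38.p6 were found for 5 of the 6 genes, at 1 start site for Nkx2-1, 3 for Lhx6, 6 for Sox6, 5 for Satb1 and 4 for Zeb2. Maf had no entry. In the 250 bases before each start, 6 short motifs were searched on both strands. These were AAAGTT (the core of the MYT1 and ST18 motif), CAAGTG (NKX2-1), TAATTA (homeodomains of DLX and LHX factors), CAGGTG (ZEB), TGCTGA (MAF) and ACAAT (SOX). The AAAGTT core was present at 1 of 3 Lhx6 starts, 1 of 6 Sox6 starts and 2 of 4 Zeb2 starts, the last 2 windows covering the same match, and in 12.5% of 32817 windows of the same length in the table. CAAGTG was present at 1 Sox6 start and 1 Satb1 start and in 11.6% of all windows. TAATTA was in none of the members' windows and in 4.85% of all windows. The corresponding shares of all windows were 17.2% for CAGGTG, 16.1% for TGCTGA and 27.7% for ACAAT. The windows shown are that of the introduced gene Nkx2-1 and those of Lhx6 and Sox6 that hold the AAAGTT core or the CAAGTG motif without overlapping an annotated exon of the gene. Each is written 5′ to 3′ on the minus strand, ends at the base before the start, and has every motif match in capitals. No matches of different motifs overlapped in them. The Nkx2-1 window lies outside the gene at chr12:56536909-56537158. The others are intronic in longer transcripts, at chr2:36104061-36104310 for Lhx6 and at chr7:116031048-116031297 and chr7:115824711-115824960 for starts 2 and 5 of Sox6.
Nkx2-1: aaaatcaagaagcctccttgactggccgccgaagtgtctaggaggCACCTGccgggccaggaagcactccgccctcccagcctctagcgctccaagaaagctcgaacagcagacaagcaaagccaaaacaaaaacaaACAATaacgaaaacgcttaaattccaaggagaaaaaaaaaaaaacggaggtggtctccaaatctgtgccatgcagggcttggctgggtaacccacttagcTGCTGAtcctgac
Lhx6: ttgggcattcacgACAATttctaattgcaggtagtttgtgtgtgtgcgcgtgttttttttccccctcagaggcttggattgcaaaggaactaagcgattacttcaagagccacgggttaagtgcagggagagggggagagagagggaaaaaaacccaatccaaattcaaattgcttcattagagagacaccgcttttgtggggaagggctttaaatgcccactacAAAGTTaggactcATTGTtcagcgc
Sox6 start 2: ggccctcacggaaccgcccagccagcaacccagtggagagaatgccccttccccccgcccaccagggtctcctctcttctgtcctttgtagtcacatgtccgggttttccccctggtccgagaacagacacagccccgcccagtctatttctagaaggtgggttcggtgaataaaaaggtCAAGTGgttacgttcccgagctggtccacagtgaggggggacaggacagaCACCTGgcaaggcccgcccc
Sox6 start 5: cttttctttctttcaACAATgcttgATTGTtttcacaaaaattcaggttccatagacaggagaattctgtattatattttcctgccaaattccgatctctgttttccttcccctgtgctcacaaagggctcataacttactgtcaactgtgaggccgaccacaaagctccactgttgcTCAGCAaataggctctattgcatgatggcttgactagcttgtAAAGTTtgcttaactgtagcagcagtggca

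The Nkx2-1 window held single matches to CAGGTG (as its reverse complement), ACAAT and TGCTGA and none to the AAAGTT core. In the Lhx6 window, the AAAGTT match began 25 bases before the start. In the window of Sox6 start 5 it began 30 bases before the start, and in that of start 2 the CAAGTG match began 70 bases before it. A match is a description of the letters only. No binding was measured here, and TPM per gene do not show which start was used.

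Before the comparison, the libraries were checked against their labels. St18 was measured at 44.4 TPM in N/D/S replicate 1 but at 15.9 TPM in N/D/S replicate 2, while the N/D libraries had 28.5 and 26.6 TPM. The St18 transcript thus did not separate the lines, and in replicate 2 it was lower in the N/D/S library. Every direction given here therefore rests on the labels, and N/D and N/D/S stand for the libraries labelled so. N/D replicate 1 stood apart from the other libraries. It reached 1 TPM for 7789 genes, against 11953 to 13184 elsewhere. Of the 9036 genes that reached 3 TPM in all of the other libraries, 29.2% were under 1 TPM in it, against 0.0328% to 1.51% for the same count in the other libraries. The differences of the 6 factors are therefore given with and without it. TPM keep no read counts, so depth is unknown and the values carry no counting interval. Nothing in the sources used here says that replicates were separate differentiations for RNA-seq, so the spread between them may be technical.

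Among 10 pan-neuronal genes, all had at least 1 TPM in every library, with a summed level of 6077 and 4458 TPM (N/D) and 7087 and 3854 TPM (N/D/S). Of these genes, 9 had a log2 difference below 0 (N/D/S minus N/D), with a median of −0.47, and none passed the threshold. Markers of other cells were low or differed between libraries. Microglia and macrophage markers, relevant because those cells use Maf and Zeb2, summed to 0.00979 to 1.56 TPM over 6 genes, and Csf1r was at most 0.0193 TPM. The 6 lung and thyroid markers, relevant because those tissues use Nkx2-1, summed to 0.213 to 3.45 TPM, and Tg and Scgb1a1 were listed at 0 in every library. Pluripotency markers (5 genes) were high in both replicate 2 libraries, at a sum of 184.3 TPM in N/D and 292.4 TPM in N/D/S, and low in both replicate 1 libraries, at 0.247 TPM in N/D and 3.597 TPM in N/D/S. Astrocyte and oligodendrocyte markers (6 genes) summed to 0 and 134.4 TPM (N/D) and 17.2 and 47.0 TPM (N/D/S), and in N/D replicate 1 all 6 were listed at 0. The summed level of 8 neural progenitor markers was 463.2 and 1213 TPM (N/D) and 504.9 and 704.0 TPM (N/D/S). Hypothalamic markers (7 genes), a region where Nkx2-1 is also used, summed to 7.12 and 89.0 TPM (N/D) and to 29.8 and 70.7 TPM (N/D/S). Glutamatergic markers (6 genes) summed to 1.28 to 19.3 TPM, endothelial markers (5 genes) to 2.89 to 38.8 TPM and mesenchymal markers (6 genes) to 0.0778 to 40.2 TPM, the mesenchymal sum being lowest in N/D replicate 1. The endothelial sum was highest in N/D replicate 1, where Pecam1 alone had 38.75 TPM, and the other 4 genes were at most 0.457 TPM in any library. The part of these cells in the values of the 6 factors was not tested. In bulk samples, fewer cells of a type and less RNA per cell cannot be told apart.

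Lhx6 was the most abundant of the factors in each of the 4 libraries. It had 114.9 TPM in N/D/S replicate 1 and 33.0 TPM in N/D/S replicate 2, against 30.8 TPM in N/D replicate 1 and 74.9 TPM in N/D replicate 2. One library of each line was high and the other low, and the lines overlapped. The mean was 74.0 ± 57.9 TPM (SD, n = 2) in N/D/S and 52.9 ± 31.2 TPM (SD, n = 2) in N/D. On the log2(TPM + 1) scale, on which fold changes of low genes are understated, N/D/S differed from N/D by 0.35 (standard error 1.12, Benjamini-Hochberg adjusted p = 1 by limma). The residual standard deviation of libraries within a line was larger, at 1.08. The log2 difference was −0.27, in the other direction, when N/D replicate 1 was left out.

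Nkx2-1, which both lines received, came next in the order of mean levels. It had 39.6 and 18.3 TPM (N/D/S) and 16.5 and 48.6 TPM (N/D), in replicate order. The same libraries were high and low as for Lhx6, and the lines overlapped. Whether these TPM include reads from the introduced copy is not given in the sources used here. The log2 difference was −0.07 (standard error 1.07, Benjamini-Hochberg adjusted p = 1 by limma). Without N/D replicate 1 it was −0.82, and without N/D replicate 2 it was 0.68.

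The ratio of Lhx6 to Nkx2-1 TPM within a library, which a scaling by 1 factor per library cannot change, was 2.90 and 1.81 (N/D/S) and 1.87 and 1.54 (N/D). Lhx6 therefore exceeded Nkx2-1 in 4 of 4 libraries, although the ranges of their TPM across libraries overlapped. The ratio was highest in N/D/S replicate 1, and the lines overlapped.

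**Figure D1:**
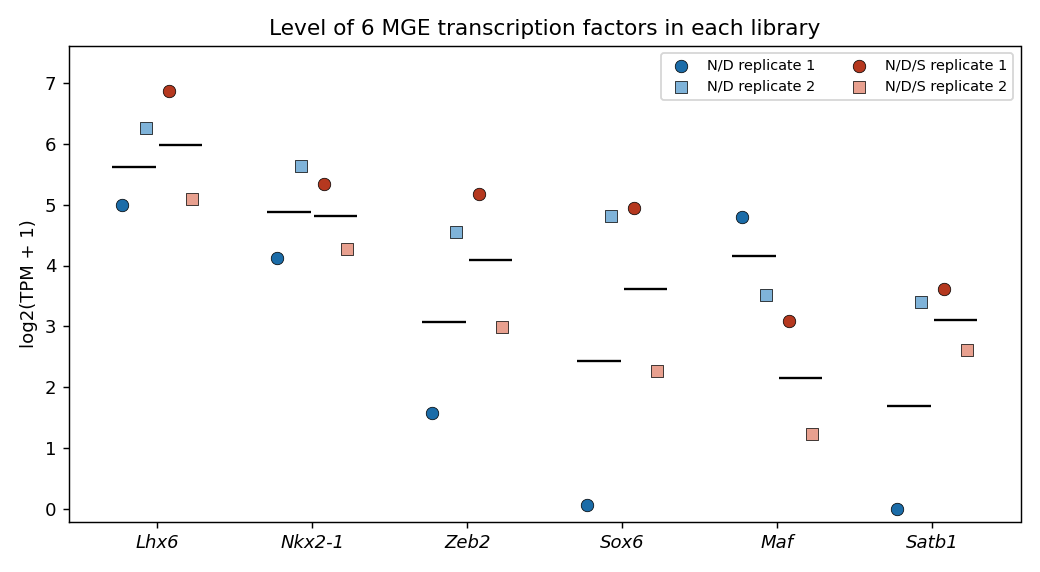
Level of each factor in each library on the log2(TPM + 1) axis, with the factors ordered by mean TPM and black lines at the mean of the 2 libraries of a line. Sox6 and Satb1 lie near 0 in N/D replicate 1, and Maf is the gene whose N/D/S points both lie below its N/D points.

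Zeb2 followed Nkx2-1 in mean TPM. It had 35.0 and 6.98 TPM (N/D/S) and 2.01 and 22.3 TPM (N/D), in replicate order. Again the high libraries were N/D replicate 2 and N/D/S replicate 1 and the lines overlapped. The log2 difference was 1.02 (standard error 1.37, Benjamini-Hochberg adjusted p = 1 by limma), and it was −0.46 without N/D replicate 1. Relative to Nkx2-1 in the same library, Zeb2 was at 0.883 and 0.382 in N/D/S and at 0.122 and 0.459 in N/D.

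Sox6 had the widest range of the factors on the log2(TPM + 1) scale, 4.87 units from the lowest library to the highest. It had 29.8 and 3.83 TPM (N/D/S) and 0.0539 and 27.0 TPM (N/D), in replicate order. Within each line the libraries were far apart, and the lines overlapped. The log2 difference was 1.17 (standard error 1.74, Benjamini-Hochberg adjusted p = 1 by limma), against a residual standard deviation of 2.72, and −1.20 without N/D replicate 1. Without N/D replicate 2, where the lone N/D library was the one that stood apart and was taken to vary like the N/D/S libraries, it was 3.53 with a limma adjusted p of 0.0170.

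Satb1 was lowest by mean TPM. It had 11.2 and 5.14 TPM (N/D/S) and 0.00857 and 9.51 TPM (N/D), in replicate order. The libraries other than N/D replicate 1 lay within 0.99 log2 units of each other. The log2 difference was 1.41 (standard error 1.34, Benjamini-Hochberg adjusted p = 1 by limma), and −0.28 without N/D replicate 1. Without N/D replicate 2 it was 3.10 with a limma adjusted p of 0.0408, in a fit where 2373 of the 12975 genes passed the threshold. In N/D replicate 1, 2 of the 5 factors that reached 3 TPM in the other libraries were under 1 TPM, beside 29.2% of all such genes.

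Maf differed from the other factors in its order of libraries. It had 7.47 and 1.35 TPM (N/D/S) and 26.7 and 10.5 TPM (N/D), in replicate order. Both libraries labelled N/D/S were below both labelled N/D, so the lines did not overlap, as for 8.23% of all genes tested in this direction. The highest level was in N/D replicate 1, the library that was lowest for each of the other factors. The mean was 4.41 ± 4.33 TPM (SD, n = 2) in N/D/S and 18.6 ± 11.5 TPM (SD, n = 2) in N/D. The log2 difference was −2.0 (standard error 1.13, Benjamini-Hochberg adjusted p = 1 by limma, unadjusted p = 0.119), which did not pass the threshold. Without N/D replicate 1 the log2 difference was −1.36, and without N/D/S replicate 2, the library with the lowest Maf, it was −1.07. It stayed below 0 in each alternative that was run. Because the lines did not overlap, leaving out a library could not have changed its sign, so those fits add nothing on direction. The library with the lowest Maf also had the lowest mean of the 10 pan-neuronal genes, 6.64 on the log2(TPM + 1) scale against 7.92 to 8.25 in the others, and relative to that mean the difference of Maf was −1.51. The part of neuronal content in this difference was not tested. Relative to Nkx2-1 in the same library, Maf was at 0.189 and 0.0740 in N/D/S and at 1.62 and 0.216 in N/D, and on this scale too the lines did not overlap.

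Of the 6 factors, 1 was lower in both N/D/S libraries than in both N/D libraries, beside 8.23% of all genes tested. None was higher in both, beside 8.69% of all genes tested. With N/D replicate 1 left out, a count added after the values were seen, both N/D/S libraries were below N/D replicate 2 for 2 of the 6 factors, Nkx2-1 and Maf, beside 31.9% of all genes. By limma with Benjamini-Hochberg adjustment, 0 of the 6 factors passed an adjusted p of 0.05, as did 0% of the 12975 genes. At an unadjusted p under 0.05 there were 0 of the 6 factors and 8 of all genes. The latter count depended on the processing and reached 389 with upper quartile scaling, and Maf had an unadjusted p of 0.0431 by limma (adjusted p = 1) when genes had to reach 1 TPM in all libraries. The median log2 difference was 0.69 over the 6 factors and 0.26 over all genes tested, and without N/D replicate 1 it was −0.64 and −0.29. With 2 libraries against 2, a two-sided exact permutation test cannot give a p below 0.333.

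**Figure D2:**
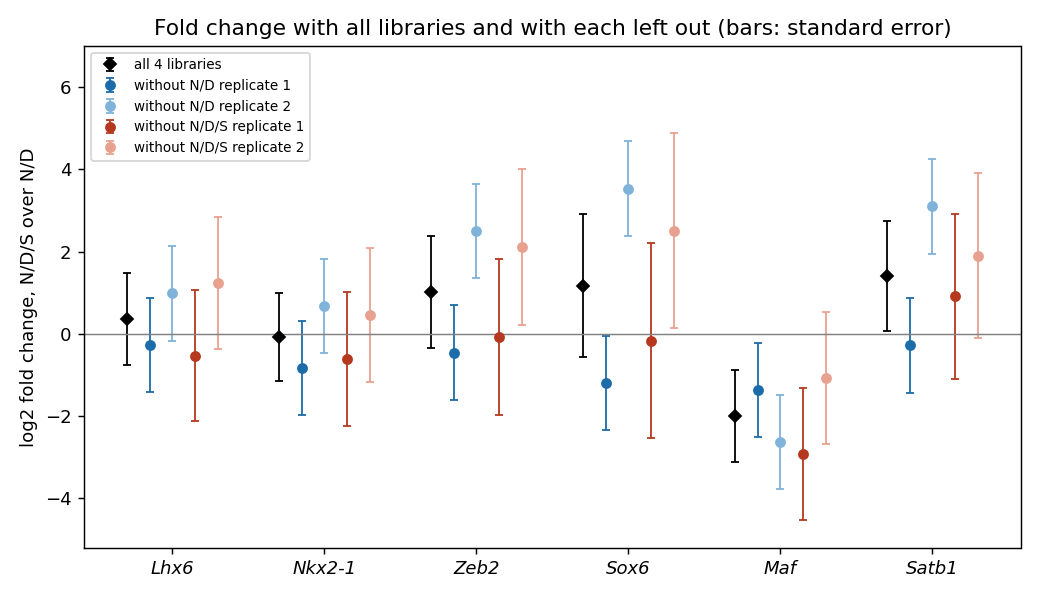
Log2 fold change (N/D/S over N/D) for each factor, with the standard error from limma, for all 4 libraries (black diamonds) and with each library left out. The points of Maf lie below 0 in every setting shown, which the lack of overlap between its lines fixes beforehand. Those of the other factors fall on both sides of 0.

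Libraries were also compared pair by pair. When N/D replicate 2 was set against N/D/S replicate 1, which are of different lines, the log2 differences of the 6 factors had a median size of 0.36, and the largest was 0.63, for Zeb2. The median size over all genes for that pair was also 0.36. Within the N/D/S line, all 6 factors were higher in replicate 1, while 26.8% of all genes were lower there. The median difference was 1.81 log2 units beside 0.69 for all genes. Within the N/D line, 5 of 6 were lower in replicate 1, beside 72.1% of all genes. The median difference was −2.23 beside −1.19 for all genes, and Maf was 1.27 higher. In replicate 1, 1 of 6 factors was lower in N/D/S, beside 27.0% of all genes, and in replicate 2 all 6 were lower, beside 74.7% of all genes. The pairs share libraries and are given as a description.

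**Figure D3:**
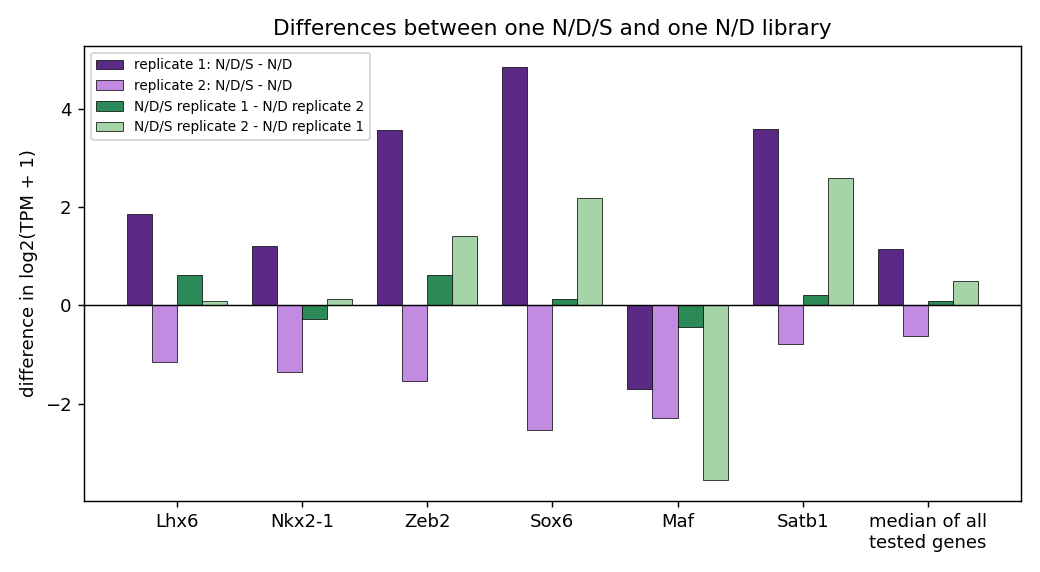
Difference in log2(TPM + 1) for each N/D/S library minus each N/D library, by factor, with the median of all 12975 tested genes at the right. For the factors other than Maf the replicate 1 bars point up and the replicate 2 bars point down, as does the median of all genes. All 4 bars of Maf point down, which restates that its lines did not overlap.

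The likeness of 2 profiles was measured as the root mean square difference of log2 levels over the 4 libraries after each gene was centred on its mean. Among the factors, Nkx2-1 and Lhx6 were most alike, at 0.34 log2 units, followed by Satb1 and Zeb2, at 0.49. The profiles that differed most were those of Sox6 and Maf, at 2.66. Of 12055 named genes, those nearest to Nkx2-1 were Etf1 and Map3k5, at 0.011 and 0.016. Those nearest to Lhx6 were B3gnt4 and Zfp46, those nearest to Zeb2 were Stk38 and Zscan22, and those nearest to Satb1 were Cep95 and Fbxo10, each within 0.040. Sox6 was nearest to Tent2 and Parp11, at 0.083 and 0.10. Maf was nearest to Sh2d5 and Rnft1, at 0.094 and 0.12. With 4 libraries such likeness is a description only.

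The make-up of the set also set N/D replicate 1 apart. Lhx6 made up 38.9% to 48.3% of the summed TPM of the 6 factors in every library, and Nkx2-1 made up 16.7% to 26.7%. Maf made up 35.1% in N/D replicate 1, against 5.44% in N/D replicate 2 and 3.14% and 1.97% in the N/D/S libraries. The sum itself was 238.0 and 68.6 TPM (N/D/S) and 76.1 and 192.8 TPM (N/D), in replicate order.

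**Figure D4:**
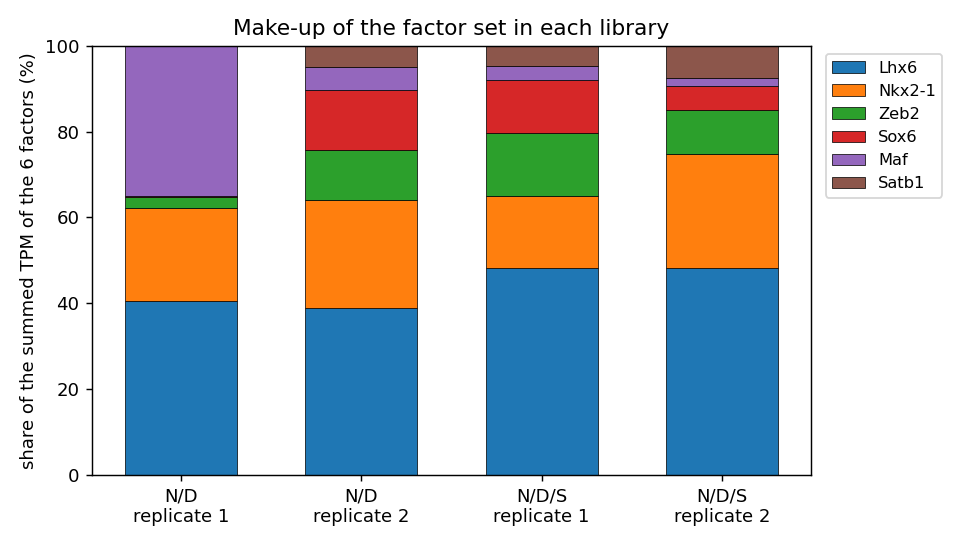
Share of each factor in the summed TPM of the 6 factors, by library, in percent. Maf takes 35.1% of the bar of N/D replicate 1 and at most 5.44% of the others, and Sox6 and Satb1 are nearly missing from that bar.

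Transcript length was set beside the low values of N/D replicate 1. Across all genes, the median log2 difference of that library from the mean of the others was −0.30 among the 20% of genes with the shortest transcripts and between −1.02 and −1.25 in the other 4 groups of equal size. Sox6, Satb1 and Zeb2, all in the group with the longest transcripts, differed by −3.93, −3.19 and −2.65. Maf, in the same group, differed by 2.18. Nkx2-1 and Lhx6 differed by −0.95 and −1.07, beside medians of −1.02 and −1.18 in their own groups. The part of length in these values was not tested.

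Of the paralogs, 2 were named after their values were seen, and each was higher in N/D replicate 1 than the factor it resembles. Sox5, the SoxD partner of Sox6, had 31.2 TPM in that library where Sox6 had 0.0539 TPM. In N/D replicate 2 it had 19.0 TPM, and in N/D/S 29.0 and 9.31 TPM. Zeb1, the paralog of Zeb2, had 71.2 TPM in N/D replicate 1 and 23.2 TPM in N/D replicate 2, against 23.9 and 5.24 TPM in N/D/S. For Zeb1, as for Maf, the highest library was N/D replicate 1 and N/D/S replicate 2 the lowest, but the lines overlapped. Their log2 differences were −1.75 (standard error 1.17) for Zeb1 and −0.53 (standard error 1.05) for Sox5, each at 1 in limma after Benjamini-Hochberg adjustment of p. Leaving out N/D replicate 1 made them −0.96 for Zeb1 and −0.19 for Sox5.

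A list of 46 other genes of the MGE pathway was measured in the same way, of which 41 could be tested. By limma with Benjamini-Hochberg adjustment, 0 of the 41 passed the threshold in either direction. The log2 difference was above 0 for 27 and below 0 for 14, beside 7967 above and 5008 below over all genes, and the median was 0.29 beside 0.26 for all genes. When N/D replicate 1 was left out, 13 were above 0 and 28 below, with a median of −0.39 beside −0.29 for all genes. Of the 46 genes, 21 were under 1 TPM in N/D replicate 1, against 5 or 6 in each other library.

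Among the 12 factors and signals that act before or beside Nkx2-1, 9 could be tested and 0 passed. Nkx6-2, an MGE progenitor homeobox gene, reached 36.3 and 82.1 TPM in the N/D/S line, and in N/D it was listed at 0 in replicate 1 and had 29.5 TPM in replicate 2, so the lines did not overlap. Gsx2, a progenitor homeobox gene that is highest in the lateral eminence, was the other gene of this group with no overlap between the lines, at 2.68 and 1.34 TPM in N/D/S, while it was listed at 0 in N/D replicate 1 and had 0.443 TPM in N/D replicate 2.

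The Dlx homeobox genes, which set the GABAergic fate, were all present in every library. Dlx2, introduced in both lines, had 258.6 and 147.5 TPM (N/D/S) and 71.1 and 187.8 TPM (N/D). Dlx1 had 519.9 and 97.9 TPM (N/D/S) and 181.9 and 447.2 TPM (N/D). Dlx5 varied least, at 206.2 and 189.2 TPM (N/D/S) and 136.3 and 190.7 TPM (N/D). The log2 differences of the 4 genes were between −0.33 for Dlx1 and 0.75 for Dlx2, and none passed the threshold. Leaving out N/D replicate 1 made them −0.98 for Dlx1, 0.06 for Dlx2, 0.05 for Dlx5 and −0.41 for Dlx6.

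Of the 18 partners and paralogs, 16 could be tested and 0 passed. Lhx8, the LIM-homeodomain relative of Lhx6 that is needed for cholinergic neurons, had 141.2 and 112.1 TPM (N/D/S) and 46.9 and 196.7 TPM (N/D). Ldb1, the cofactor of LIM-homeodomain proteins, had 123.8 and 80.4 TPM (N/D/S) and 51.8 and 88.1 TPM (N/D). Cux2, a homeobox gene of migrating interneurons, was the single gene of this group with no overlap between the lines, at 13.0 and 8.56 TPM (N/D/S) and 2.90 and 8.20 TPM (N/D).

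All 12 downstream genes could be tested and 0 passed. Sst, the somatostatin neuropeptide gene, had 444.3 and 224 TPM (N/D/S) and 277.5 and 421.4 TPM (N/D). Npy, another neuropeptide gene of these interneurons, had 554.2 and 148.4 TPM (N/D/S) and 434 and 227.6 TPM (N/D). Gad2, which encodes a GABA-synthesizing enzyme, had 168.7 and 42.0 TPM (N/D/S) and 140.8 and 83.7 TPM (N/D). Elfn1, a postsynaptic adhesion gene of somatostatin interneurons, was the downstream gene with no overlap between the lines, at 2.42 and 0.492 TPM (N/D/S) and 11.4 and 4.77 TPM (N/D). Its log2 difference was −1.90 (standard error 1.05, Benjamini-Hochberg adjusted p = 1 by limma), and −1.35 when N/D replicate 1 was left out. Gsx2, Cux2 and Elfn1 were named after their values were seen. In all, 3 of the 41 pathway genes were higher and 1 was lower in both N/D/S libraries, beside 8.69% and 8.23% of all genes tested.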

How the data were processed

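Bulk RNA-seq libraries of sorted tdTomato+ neurons were analysed, 2 of each line (N/D, N/D/S). Reads were pseudoaligned by the authors with kallisto 0.44.0, and the submitters' processing notes name GRCm38 and sleuth. The deposited values are TPM for each gene symbol, with no scaling from library to library, and how transcripts were combined into genes is not given in the sources used here. Files were joined on symbol, leaving out 24 symbols that had become dates. Genes that reached 1 TPM in 2 or more libraries were fitted on log2(TPM + 1) with limma 3.58.1 in R 4.3.3, and p-values were adjusted over all of them (Benjamini-Hochberg, threshold 0.05). Sleuth could not be run on TPM alone. The fit was tested on simulated data. Positions and lengths came from GENCODE M21. Python 3.11.15 was used for tables and figures, with pandas 2.3.3, numpy 2.4.6 and matplotlib 3.10.9.

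The 6 factors, the lists and the alternatives were chosen with earlier results of these data known. Pathway genes were named if they passed the threshold, were among the 3 with the highest mean TPM of their group or were introduced (some are not reported here), with the 2 genes most like each factor (symbols of predicted genes and Riken clones left out). Alternatives were pseudocounts of 0.1 and 0.5, other filters and scalings, a variance trend, replicate number as a block, and each library left out.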

Additional observations from a re-analysis of the deposited data

How the results depend on the processing

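Of 133 values recomputed for 9 results, 118 led to the same call or moved less than the spread, 11 log2 fold changes of factors changed direction, 2 newly passed the threshold and 2 counts moved. For a factor, the same call meant the same direction and the same side of the threshold. For a median, the spread was the standard deviation of the median differences of the same-numbered libraries. Over all genes those were 1.14 in replicate 1 and −0.617 in replicate 2. That spread is wide beside the median of 0.26, so a median staying within it says little. Among the 118 were 5 medians, of all genes or of the pathway list, that turned below 0. The causes were not tested. With all libraries, the count of genes past the threshold was 0 except with the variance trend, which gave 6 (5 higher and 1 lower, none a factor). Sox6 changed direction with quantile normalization, to −0.090, and Nkx2-1 relative to the pan-neuronal list, to 0.41. With a library left out, the count ranged from 0 to 2373, the highest without N/D replicate 2. The log2 fold change then ranged from −0.82 to 0.68 for Nkx2-1, −0.53 to 1.24 for Lhx6, −1.20 to 3.53 for Sox6, −0.28 to 3.10 for Satb1, −0.46 to 2.49 for Zeb2 and −2.92 to −1.07 for Maf. For Maf, alternatives with all libraries gave −2.34 to −1.51, where the lowest limma p after Benjamini-Hochberg adjustment was 0.999, and with a library left out it was 0.0933. With at least 1 TPM in every library, Sox6 and Satb1 were not tested. With all libraries, 8 to 389 genes had an unadjusted p under 0.05, the highest counts being 389 with upper quartile scaling, 377 with no filter, 224 with the variance trend and 164 relative to the pan-neuronal list. The median over all genes, 0.26, was between −0.05 (quantile normalization) and 0.75 (relative to the pan-neuronal list) under the scalings, −0.15 over genes that reached 1 TPM in all libraries, and −0.29 to 0.88 with a library left out. The sources used here name no pairing, so the numbers were not taken as pairs. Same-numbered libraries had a correlation of 0.0197 over genes after the line means were removed. With 2 libraries per line, this value cannot show whether same-numbered libraries were made together. Pluripotency markers were high in both replicate 2 libraries and low in both replicate 1 libraries. With replicate number as a block, the log2 fold changes were the same, and 0 genes passed the threshold. Depth is unknown, so what it limits was not assessed.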
